A study of Saccharomyces cerevisiae with 4 samples.

Results

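The mitochondrial ribosomal protein genes of the budding yeast Saccharomyces cerevisiae were followed in cells moved from nitrogen-rich to nitrogen-poor medium. A set of 42 genes was chosen by systematic name from the MRPL, MRPS, MRP and RSM gene families, out of 6301 open reading frames (ORFs) in the table, and the ratios of single genes did not enter the choice. Of the 42 genes, 25 encode proteins of the large subunit and 17 encode proteins of the small subunit. By the current ribosomal protein nomenclature, 28 of the proteins have a homologue in the bacterial ribosome and 14 are specific to mitochondria. The set leaves out, by its rule, the genes from YKL054C to YMR185W and from YOR046C to YPL023C in the order of systematic names, because the replicates of the experiment did not correlate there (the rows of disagreement below). It does not hold every other gene of these families. A further 20 mitochondrial ribosomal protein genes outside these rows, MRPS17 and MRP17 among them, are not in the set and are described further below.

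The mitochondrial ribosome of yeast translates the small number of proteins encoded in mitochondrial DNA, nearly all of which are core subunits of respiratory chain complexes and of the ATP synthase. Its ribosomal RNAs are made inside the organelle, whereas almost all of its proteins are encoded in the nucleus, translated in the cytosol and imported. The small subunit binds the messenger RNA and reads its codons, and the large subunit joins the amino acids and holds the tunnel through which the new protein leaves.

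Both media were compared in strain S288c by competitive hybridization to PCR products of ORFs spotted on glass. For the nitrogen-poor condition, cells were taken out of the rich medium and kept for 12 h in minimal medium (MM) that held 0.025% ammonium sulfate and neither amino acids nor adenine. The nitrogen-rich condition was synthetic complete medium (SC), in which cells were shaken at 160 rpm and 30°C and harvested at an OD600 of 0.4, so supply of nitrogen, of amino acids and of adenine, and the time and density at harvest, differ together and cannot be told apart. In both conditions 2 µg of mRNA was reverse transcribed from oligo-dT, a primer that anneals to poly-A tails. There were 4 arrays, numbered 1 and 2 by replicate in each of 2 dye orientations. By the array titles, the MM-Cy5 arrays carried MM in Cy5 and SC in Cy3, and the SC-Cy5 arrays carried the reverse. The arrays of both orientations of a replicate number were averaged to 1 replicate (n = 2). Outside the rows of disagreement, where the set lies, equal numbers are not shown to pair the arrays. The SD and the test of each gene rest on this pairing. The series is described as having 2 biological replicates, but the study's methods speak of separate reverse transcription reactions, so the spread between replicates may be technical. Equal amounts of mRNA were compared, so each ratio is relative to the rest of the mRNA, and a share of cells carrying a transcript cannot be told apart from its amount per cell.

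All values are log2 of MM over SC, so that a gene abundantly expressed in MM has a positive value and a gene meagerly expressed in MM has a negative value. The dye of each medium in the array titles is the reverse of that in the channel annotations. The direction was taken from 5 genes for which the study's text states the direction of the oligo-dT array ratio, and the mean of the deposited values had the stated sign in 5 of 5. Of these genes 4 lie in the rows of disagreement, and limma called none of those measured on all arrays. Replicate 1 alone had the stated sign in 5 of them and replicate 2 alone in 2, so these 5 genes do not firmly settle the direction. The study also reports energy genes as abundantly and protein synthesis genes as meagerly expressed in nitrogen-poor medium, with oligo-dT too. In the direction used here, nuclear genes of the respiratory chain and ATP synthase had a median of 1.02 (0.95 in replicate 1, 1.13 in replicate 2). Genes listed for the cytosolic ribosome had a median of -0.16 (-0.15 and -0.19). Only 35.1% of these had the same sign on all 4 arrays, against 59.7% of all ORFs with 4 values. In the respiratory chain and ATP synthase list the share was 84.6%. The sign of the cytosolic ribosome list is thus the less steady guide to the direction. Were the direction the other one, all signs given here would be turned. A gene was tested when it had a value on all 4 arrays, and it was called when limma gave an adjusted p (Benjamini-Hochberg, over 3765 ORFs) of at most 0.05.

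Among the 42 genes, RSM24 (YDR175C, chromosome IV) has a particular place, since its transcript was the internal standard of the RT-PCR measurements of the study. RSM24 encodes the protein mS35, a component of the small subunit that is specific to mitochondria. Its primer pair is shown because every RT-PCR ratio of the study is relative to the product of these primers, each of 20 bases, with 50% G and C in the forward and 45% in the reverse primer (5′ to 3′, in lower case throughout, since no base is singled out).
RSM24 forward: tctctcggggtaatttgtgg
RSM24 reverse: tgctgaaaaagctggtcctt

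The log2 ratio of RSM24 was 0.05 and -0.20 on the MM-Cy5 arrays (replicates 1 and 2), and 0.10 and 0.04 on the SC-Cy5 arrays. It lay on both sides of 0, with the lowest value on MM-Cy5 array 2. The mean was -0.0040 ± 0.11 (SD, n = 2), with a limma 95% interval of -0.32 to 0.31 and an adjusted p of 0.978. With the rows of disagreement left out of the fit, the interval was -0.24 to 0.24. Only 22 of the 3765 tested ORFs had a mean at or nearer to 0. RSM24 was picked as a standard by the study with array results in hand, so a mean close to 0 is a description here. The adjacent RefSeq genes in the table, HMO1 with -0.43 and NGG1 with -0.35, were not called either.

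Spots that were not well measured had been left blank in the deposited values. The share of blank ORFs was 5.71% on MM-Cy5 array 1 and 7.25% on SC-Cy5 array 1, and it was 30.3% and 34.6% on their counterparts of replicate 2. Of the 42 genes, 31 (73.8%) had a value on all 4 arrays, 3 on 3 arrays, 6 on 2 arrays and 2 on no array. Over all ORFs, 3765 of 6301 (59.8%) had all 4 values, and outside the rows of disagreement 63.0% had. The 31 genes with all values are therefore those whose spots were bright enough on each array, and they do not stand for all 42.

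In MM, 8 of the 31 tested mitochondrial ribosomal protein genes (25.8%) were called, against 33.5% of all 3765 tested ORFs. Outside the rows of disagreement, where all 31 genes lie, 40.4% of 2994 tested ORFs were called. A higher level in MM was called in 6 of them, namely MRPL19, MRPL51, MRPL6, RSM27, MRPL25 and RSM18, against 16.5% of all ORFs. A lower level was called in 2, RSM7 and MRPL10, against 17% of all ORFs. The share of called genes in the set was thus not above that of the table as a whole. Most of the means were close to 0: 26 of 31 (83.9%) had a mean within 0.5 of 0 on the log2 scale, against 61.6% of all tested ORFs, and 2 of 31 (RSM7 and MRPL19) reached a 2-fold difference, against 14.1% of all ORFs. Before adjustment, 14 of 31 genes had a p of at most 0.05, with 9 higher and 5 lower, against 48.3% of all ORFs.

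**Figure D1:**
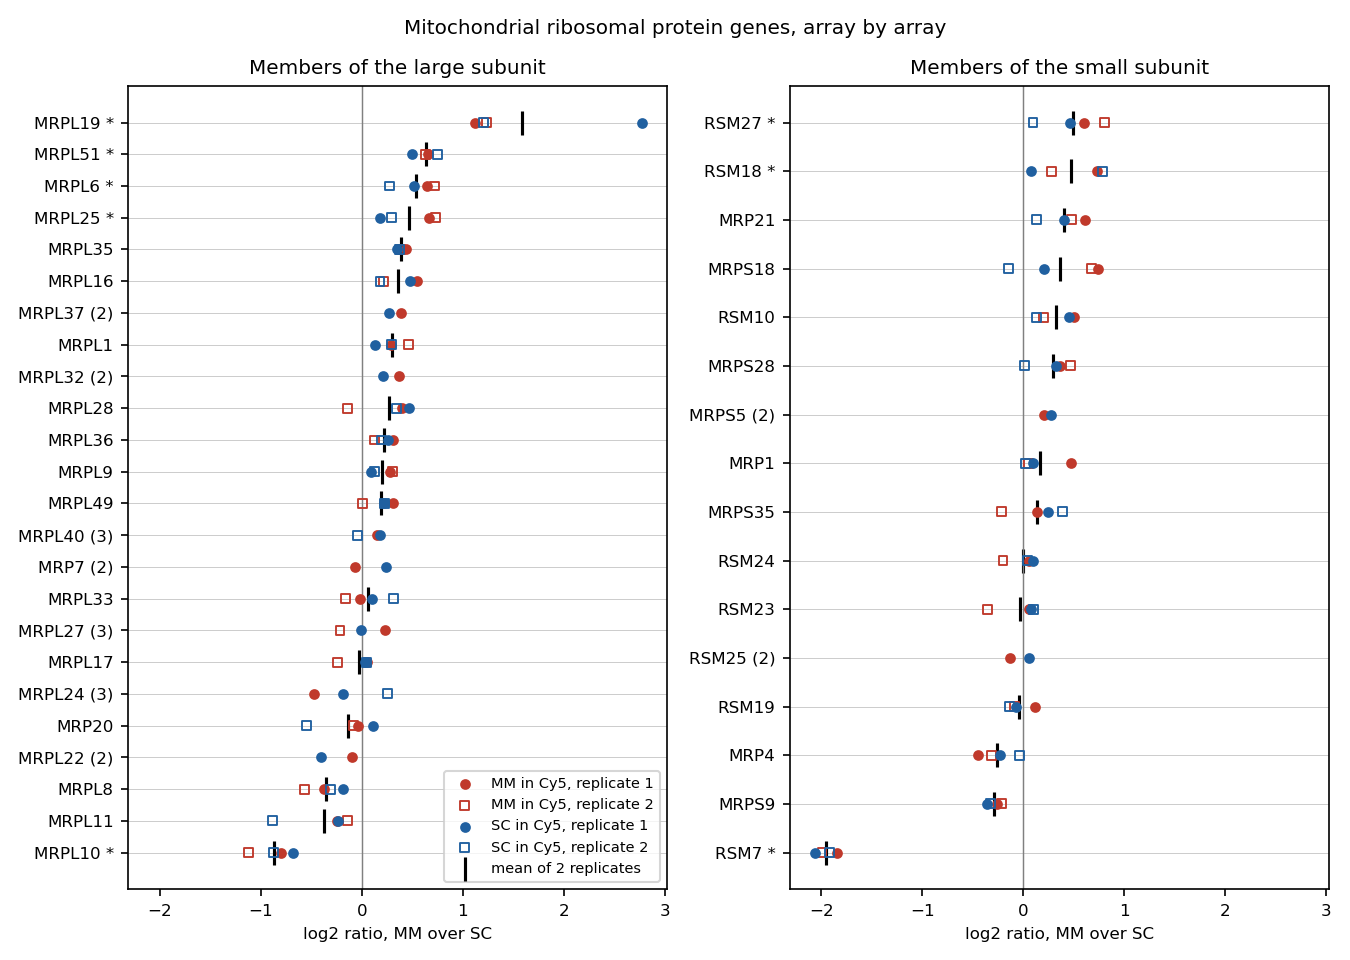
Log2 ratio of MM over SC (horizontal axis) on each of the 4 arrays for the mitochondrial ribosomal protein genes of the large subunit (left panel) and small subunit (right panel) that had any value, sorted by level; vertical bars are means of 2 replicates, asterisks mark called genes, and a number in parentheses gives the number of arrays where it was under 4. RSM7 lies near -1.96 on all arrays, MRPL19 lies above 1.12 on all arrays with a single value at 2.78, and most of the other genes lie within 0.5 of 0.

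The lowest ratio in the set belonged to RSM7 (YJR113C), which encodes the homologue of bacterial S7, a protein of the head of the small subunit that binds ribosomal RNA near the decoding region. Its log2 ratio was -1.84 and -2.00 on the MM-Cy5 arrays, and -2.07 and -1.92 on the SC-Cy5 arrays, for replicates 1 and 2. The mean was -1.96 ± 0.0012 (SD, n = 2), or 0.258 of the level in SC, with a limma 95% interval of -2.24 to -1.68 and an adjusted p of 0.00864. All 4 arrays stood close together, and RSM7 was 73rd from the lowest of 3765 tested ORFs. The nearest RefSeq genes of the table on either side were called in different directions, NNF1 (YJR112W) with -0.77 (limma adjusted p 0.0220) and YJR115W with 1.69 (limma adjusted p 0.00995). Reading frames of the table without a RefSeq entry were passed over.

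MRPL10 (YNL284C) was the other called gene that was meagerly expressed in MM. It encodes the homologue of bacterial L15, which binds ribosomal RNA inside the large subunit. Its log2 ratio was -0.80 and -1.13 on the MM-Cy5 arrays, and -0.68 and -0.87 on the SC-Cy5 arrays. The mean was -0.87 ± 0.18 (SD, n = 2), or 0.547 of the level in SC (limma adjusted p 0.0239). The values were negative on all arrays, and both arrays of replicate 2 lay below their partner of replicate 1. RSM7 and MRPL10 were also called after each array was left out in turn.

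At the other end stood MRPL19 (YNL185C), which encodes the homologue of bacterial L11, a protein at the base of the stalk where translation factors dock on the large subunit. Its log2 ratio was 1.12 and 1.23 on the MM-Cy5 arrays, and 2.78 and 1.20 on the SC-Cy5 arrays. On 3 arrays the values were close together, while SC-Cy5 array 1 stood apart. The mean was 1.58 ± 0.52 (SD, n = 2), a 3.0-fold higher level in MM (limma adjusted p 0.0261). Without that array the mean was 1.17 and the gene was still called. Without MM-Cy5 array 1 the mean was 2.00 and the adjusted p was 0.0643. MRPL19 overlaps YNL184C, a reading frame whose log2 ratio went the other way, with -0.64 and -0.95 on the MM-Cy5 arrays and -0.52 and -0.77 on the SC-Cy5 arrays (mean -0.72, limma adjusted p 0.0333). Both systematic names end in C, so both frames are read from the same strand. Transcripts that cover the overlap are not kept apart on these arrays.

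The next highest gene, MRPL51 (YPR100W), encodes mL43, a mitochondria-specific protein of the large subunit. Its log2 ratio was 0.65 and 0.63 on the MM-Cy5 arrays, and 0.50 and 0.75 on the SC-Cy5 arrays. The mean was 0.63 ± 0.08 (SD, n = 2), a 1.55-fold higher level in MM (limma adjusted p 0.0281). The 4 arrays stood close together, although without MM-Cy5 array 2 the adjusted p was 0.0733 at a mean of 0.66. MRPL51 overlaps YPR099C, which had 0.65 and 0.38 on the MM-Cy5 arrays and 0.39 and 0.64 on the SC-Cy5 arrays (mean 0.52, limma adjusted p 0.0360). By their names (W and C) these 2 genes lie on opposite strands. Spotted PCR products are double-stranded and hold both strands. The 2 spots moved the same way, and their transcripts cannot be told apart by strand. Among genes of the RefSeq annotation, MRP4 was the only other of the 42 genes that overlaps another gene. Its partner YHL005C had a value of 0.02 on a single array. RefSeq matched 5801 of the 6301 names in the table. The other reading frames were not checked, so further overlaps in the set, for RSM7 as well, are possible.

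MRPL6 (YHR147C) encodes the homologue of bacterial L6, which sits near the site where translation factors bind the large subunit. Its log2 ratio was 0.64 and 0.72 on the MM-Cy5 arrays, and 0.52 and 0.28 on the SC-Cy5 arrays. The mean was 0.54 ± 0.06 (SD, n = 2), a 1.45-fold higher level in MM (limma adjusted p 0.0350). The call was lost without MM-Cy5 array 1 (0.51, adjusted p 0.0522), without MM-Cy5 array 2 (0.43, adjusted p 0.174), and without SC-Cy5 array 1 (0.57, adjusted p 0.0511).

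RSM27 (YGR215W), for the mitochondria-specific small subunit protein mS33, had log2 ratios of 0.60 and 0.81 on the MM-Cy5 arrays and of 0.46 and 0.09 on the SC-Cy5 arrays. The mean was 0.49 ± 0.06 (SD, n = 2), and its limma adjusted p of 0.0410 did not hold after any array was left out (0.31 to 0.67, adjusted p 0.0507 to 0.311). MRPL25 (YGR076C), for the mitochondria-specific large subunit protein mL59, had 0.67 and 0.73 on the MM-Cy5 arrays and 0.19 and 0.29 on the SC-Cy5 arrays. Both values on the MM-Cy5 arrays were higher than both on the SC-Cy5 arrays. The mean was 0.47 ± 0.06 (SD, n = 2, limma adjusted p 0.0444), and it was called without SC-Cy5 array 1, but not without MM-Cy5 array 1 (0.35), MM-Cy5 array 2 (0.36) or SC-Cy5 array 2 (0.58). RSM18 (YER050C), for the homologue of bacterial S18 on the platform of the small subunit, had 0.73 and 0.28 on the MM-Cy5 arrays and 0.07 and 0.79 on the SC-Cy5 arrays. The MM-Cy5 array was the higher in replicate 1 and the SC-Cy5 array in replicate 2, while the replicate means were 0.40 and 0.53. The mean was 0.47 ± 0.09 (SD, n = 2), and its limma adjusted p of 0.0488 was the highest among called genes of the set. It was called without SC-Cy5 array 1, but not without MM-Cy5 array 1 (0.30), MM-Cy5 array 2 (0.59) or SC-Cy5 array 2 (0.34).

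Below 0, the genes next to RSM7 and MRPL10 encode homologues of bacterial proteins and were not called. MRPL11, for the homologue of L10 that carries the stalk of the large subunit, had -0.24 and -0.14 on the MM-Cy5 arrays and -0.23 and -0.88 on the SC-Cy5 arrays (mean -0.37 ± 0.20, limma adjusted p 0.103), with SC-Cy5 array 2 the farthest from 0. MRPL8, for the homologue of L17, had -0.37 and -0.57 on the MM-Cy5 arrays and -0.18 and -0.31 on the SC-Cy5 arrays (mean -0.36 ± 0.11, limma adjusted p 0.0818). MRPS9, for the homologue of S9 in the head of the small subunit, had -0.26 and -0.22 on the MM-Cy5 arrays and -0.36 and -0.32 on the SC-Cy5 arrays (mean -0.29 ± 0.03, limma adjusted p 0.0989). Each of these 3 genes was negative on all arrays.

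The rest of the tested genes had means between -0.26 and 0.40, none of them called. The means of MRP4, MRP20, RSM19, RSM23 and MRPL17 were -0.26, -0.14, -0.05, -0.03 and -0.03. MRPL33, MRPS35, MRP1, MRPL49, MRPL9 and MRPL36 had means of 0.06, 0.13, 0.16, 0.19, 0.20 and 0.22. MRPL28, MRPS28, MRPL1, RSM10, MRPL16, MRPS18, MRPL35 and MRP21 had means of 0.27, 0.29, 0.30, 0.32, 0.36, 0.37, 0.38 and 0.40, and RSM24 completes the list. They include MRP20, the homologue of L23 at the exit of the protein tunnel, MRPL9, the homologue of L3, and MRPL16, the homologue of L16. MRPL35, which encodes the mitochondria-specific protein mL38 and was picked out after its values were seen, had 0.44 and 0.38 on the MM-Cy5 arrays and 0.35 and 0.37 on the SC-Cy5 arrays, a spread of 0.0093 between the replicate means (SD, n = 2), and an adjusted p of 0.0594 by limma.

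As a set, the 31 genes had a median log2 ratio of 0.20 (1.15-fold), with quartiles of -0.04 and 0.38, against a median of -0.02 over all tested ORFs. A mean above 0 was found in 20 of 31 genes (64.5%), against 48.5% of all ORFs. Replicate 1 alone gave a median of 0.26 and replicate 2 alone a median of 0.12. Array by array it was 0.31 and 0.05 on the MM-Cy5 arrays and 0.13 and 0.12 on the SC-Cy5 arrays, against -0.03, -0.07, 0.02 and 0.02 over all ORFs. The median of the set was above that of all ORFs on each array, and by the most on MM-Cy5 array 1. On the arrays in the same order, 23, 17, 24 and 22 of the 31 genes lay above 0. In 23 of 31 genes the mean of replicate 1 was higher than that of replicate 2. These are descriptions of the set without a test.

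Both subunits had a median above 0. For the large subunit, the 17 tested genes had a median of 0.22 (0.26 in replicate 1 and 0.16 in replicate 2), 12 of them above 0, with 4 called higher and 1 called lower. For the small subunit, the 14 tested genes had a median of 0.15 (0.23 in replicate 1 and 0.06 in replicate 2), 8 of them above 0, with 2 called higher and 1 called lower. The called shares were 29.4% for the large and 21.4% for the small subunit. Both were below the 33.5% of all ORFs and the 40.4% of ORFs outside the rows of disagreement. By class, the 21 tested genes for homologues of bacterial proteins spanned -1.96 to 1.58 around a median of 0.20, with 3 called higher and 2 called lower. The 10 tested mitochondria-specific genes spanned -0.03 to 0.63 around a median of 0.21, with 3 called higher (MRPL51, RSM27 and MRPL25) and 0 called lower by limma. Before adjustment, 4 of these 10 had a p of at most 0.05. The called shares were 23.8% for the genes with a bacterial counterpart and 30.0% for the mitochondria-specific genes, again below that of all ORFs (33.5%, and 48.3% before adjustment). The 5 lowest means of the set and the highest all belonged to genes with a bacterial counterpart. The difference between the classes was not tested.

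Genes without all values were not tested. MRPL24, for the homologue of bacterial L28, had -0.47 on MM-Cy5 array 1, and -0.19 and 0.26 on the SC-Cy5 arrays, so that the replicates lay on different sides of 0. It lies 9 rows from the edge of the rows of disagreement, where the correlation of the replicate means over the surrounding 29 genes was 0.293, against a median of 0.958 around the 42 genes. MRPL27, for mL41, had 0.23 and -0.22 on the MM-Cy5 arrays and -0.01 on SC-Cy5 array 1. MRPL40, for the homologue of L24, had 0.15 on MM-Cy5 array 1, and 0.19 and -0.04 on the SC-Cy5 arrays. None of these 3 genes had values of 1 sign on all of its arrays.

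A further 6 genes were measured in replicate 1 alone. MRPL32 had 0.37 on the MM-Cy5 array and 0.21 on the SC-Cy5 array, MRPL37 had 0.39 and 0.27 in the same order, and MRPS5 had 0.21 and 0.28. These 3 genes were above 0 in both orientations. MRPL22 was below 0 in both, with -0.09 and -0.40. MRP7, for the homologue of bacterial L27, had -0.07 and 0.24, and RSM25, for mS23, had -0.13 and 0.05, so that the sign of both genes differed between the dye orientations. MRPL7, for the homologue of L5, and MRP10, for mS37, had no value on any array.

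The replicates ranked the genes of the set in a like order. Across the 31 genes, which share arrays and are no replicates, Pearson's r between the replicate means was 0.950 and Spearman's rho 0.887. Without RSM7 and MRPL19 these values were 0.906 and 0.862 over 29 genes. Over all 3765 ORFs r was 0.766, and the set was chosen to avoid the rows of disagreement that enter that value. The median SD between replicates was 0.103 in the set, against 0.119 over all ORFs and 0.0988 over the ORFs outside the rows of disagreement. The sign was the same on all 4 arrays in 22 of 31 genes (71.0%), against 59.7% of all ORFs and 67.2% of those outside these rows.

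Between dye orientations, r of the orientation means was 0.877 and rho 0.736 across the 31 genes. Without RSM7 and MRPL19 these values were 0.779 and 0.678 over 29 genes. Over all ORFs r was 0.919, so that the orientations correlated less than the replicates in the set and more than the replicates over the whole table, where the rows of disagreement enter. A term for the dye orientation, fitted by limma on the 4 arrays, was called in 0 of 31 genes, against 0.0266% of all ORFs. Its p before adjustment was at most 0.05 in 2 of 31, against 8.21% of all ORFs. These genes, named after their values were seen, were MRPS18, which encodes the homologue of bacterial S11 and had 0.73 and 0.68 on the MM-Cy5 arrays and 0.20 and -0.15 on the SC-Cy5 arrays (difference 0.68, unadjusted limma p 0.0212), and MRPL25 (difference 0.46, unadjusted limma p 0.0409).

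**Figure D2:**
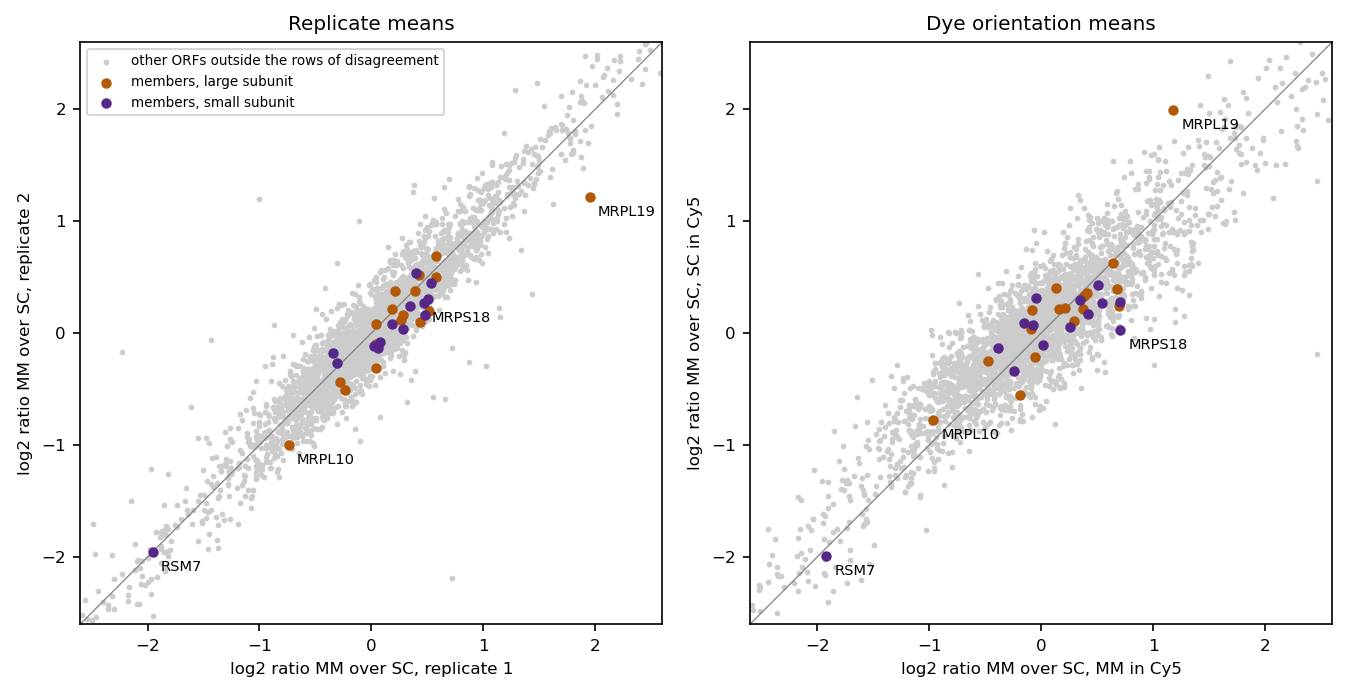
Mean log2 ratio of MM over SC in replicate 1 (horizontal) against replicate 2 (vertical) in the left panel, and with MM in Cy5 (horizontal) against SC in Cy5 (vertical) in the right panel, for the 31 tested mitochondrial ribosomal protein genes (coloured by subunit) and other tested ORFs outside the rows of disagreement (grey); the line marks equal values, and some grey points lie beyond the axes. RSM7 lies close to the line in both panels, MRPL19 is higher in replicate 1 and with SC in Cy5, and MRPS18 is higher with MM in Cy5.

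The count of called genes changed with the way the spread between replicates was estimated, at the same mean ratios. When the rows of disagreement were left out of the fit, 19 of 31 genes (61.3%) were called, 14 higher and 5 lower, against 64.1% of all ORFs in that fit, 30.8% higher and 33.3% lower. In that fit all genes received 1 common standard error (0.122), so that a call amounts to a mean beyond about 0.26 of 0, and it adds MRP21, MRPL35, MRPS18, MRPL16, RSM10, MRPL1, MRPS28 and MRPL28 to the genes higher in MM and MRPL11, MRPL8 and MRPS9 to those lower. With the 4 arrays fitted and the replicate number as a random block, 17 of 31 (54.8%) were called, 12 higher and 5 lower, against 52.6% of all ORFs. The share in the set was thus close to that of all ORFs in both fits.

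**Figure D3:**
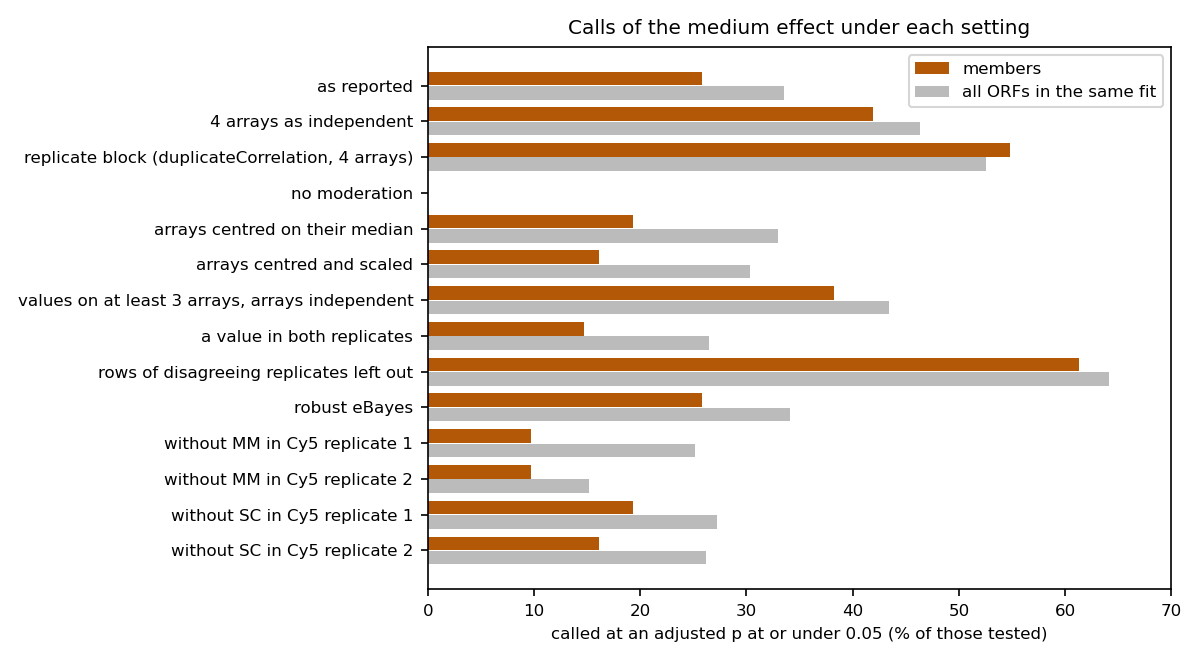
Share of tested genes with a call (limma adjusted p of at most 0.05; horizontal axis, percent) under each way of fitting the values, for the mitochondrial ribosomal protein genes (upper bar of each pair) and all ORFs in the same fit (lower bar). The share in the set was 25.8% as reported and 61.3% without the rows of disagreement, and no gene of the set or of the table was called without moderation of the variance.

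Other genes of mitochondrial gene expression were described next to the set, from lists of textbook knowledge. A further 35 mitochondrial ribosomal protein genes are in the table, 15 of them in the rows of disagreement. Outside these rows 13 were tested, with a median of 0.25 beside the 0.20 of the 31 genes. In this list 4 were called higher and 1 lower (38.5% called), close to the 40.4% called among all ORFs outside these rows. Among them MRP17, for the homologue of bacterial S6, was highest with 0.70 ± 0.02 (SD, n = 2, limma adjusted p 0.0228) and MRPS17, the homologue of bacterial S17, was the called lower gene with -0.75 ± 0.07 (SD, n = 2, limma adjusted p 0.0225).

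For the partners of the mitochondrial ribosome the counts were small, beside 33.5% of all ORFs called. These counts include genes in the rows of disagreement. Of 20 genes for mitochondrial translation factors and translational activators, 12 were tested, and CBS1, an activator of cytochrome b synthesis, was called higher with 0.54 ± 0.11 (SD, n = 2, limma adjusted p 0.0392), while their median was 0.09. Of 13 genes for aminoacyl-tRNA synthetases that serve mitochondria, 8 were tested and 0 were called by limma (2 had an unadjusted p of at most 0.05), with a median of -0.18 and 7 of 8 below 0. Of 10 genes for mitochondrial transcription, RNA handling, ribosome assembly and membrane insertion, 7 were tested and 3 were called, 1 higher and 2 lower, with a median of -0.24. In that list the transcription factor gene MTF1 was called higher with 3.19 ± 0.18 (SD, n = 2, limma adjusted p 0.00864), above any gene of the set. The largest called decrease was that of MTG1 with -2.06 ± 0.60 (SD, n = 2), a gene for assembly of the mitochondrial ribosome that lies in the rows of disagreement. Outside these rows MSS116, for an RNA helicase that acts in the splicing of mitochondrial introns, was called lower with -0.71 ± 0.16 (SD, n = 2, limma adjusted p 0.0297).

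The nuclear genes for the respiratory chain and ATP synthase, whose protein products assemble with the products of the mitochondrial ribosome, stood at another level. Of 34 such genes 26 were tested, 25 of them had a mean above 0, and 21 (80.8%) were called higher and 0 lower, with a median of 1.02, against 8 called and a median of 0.20 for the 31 mitochondrial ribosomal protein genes. Over all ORFs, 16.5% were called higher and 17% lower. Outside the rows of disagreement 23 genes of this list were tested, with a median of 1.08. QCR10, for a subunit of the cytochrome bc1 complex, was highest with 1.86 ± 0.06 (SD, n = 2, limma adjusted p 0.00864). Only MRPL19 of the 31 genes had a mean above the median of this list. The 97 tested genes listed for the cytosolic ribosome had a median of -0.16, with 3 called higher and 15 called lower (18.6% called, against 33.5% of all ORFs). Outside the rows of disagreement 78 were tested, with a median of -0.17. The 97 genes were picked by symbol and include RPP1 (mean -0.13), which encodes a subunit of RNase P and not a ribosomal protein. The lowest of them was RPL36A with -0.90 ± 0.09 (SD, n = 2, limma adjusted p 0.0175) and the highest was RPS30A with 1.39 ± 0.17 (SD, n = 2, limma adjusted p 0.0131), which lies in the rows of disagreement. Differences between the lists were not tested, and a median is given for each without a test.

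**Figure D4:**
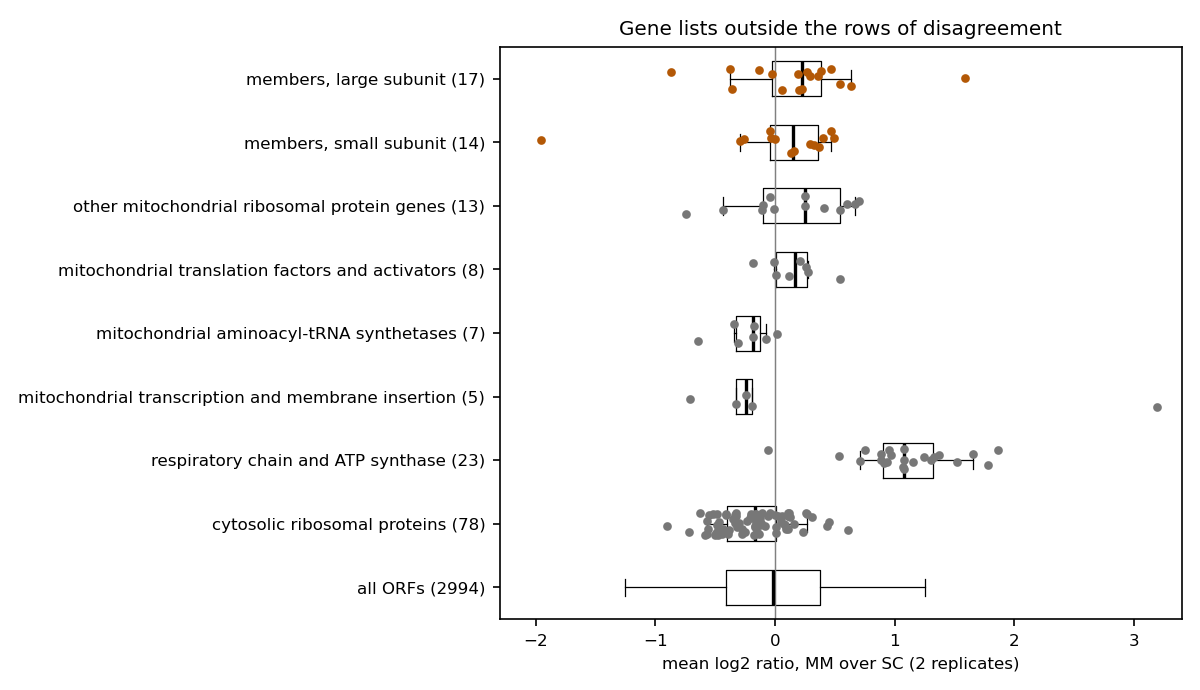
Mean log2 ratio of MM over SC (horizontal axis, 2 replicates) of genes outside the rows of disagreement, by list, with the number of tested genes in parentheses; points are genes, boxes span the quartiles with a line at the median, and whiskers span the 5th to 95th percentile (for all ORFs, single genes are not drawn). The medians of both subunits lie slightly above 0, while the genes of the respiratory chain and ATP synthase lie near 1 and those of the cytosolic ribosome slightly below 0.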

How the data were processed

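Transcript abundance was compared on 4 two-colour spotted ORF arrays, 2 in each dye orientation. The deposited values are log2 ratios of the media, 1 per ORF and array: the authors scanned and gridded the arrays with a GenePix scanner, subtracted background from foreground and normalized mean by mean over well measured spots (signal above 3 standard deviations of the background pixels), with other spots blank and replicates not pooled. Raw intensities were not used here, no genome build is given in the sources used here, and precision is limited by the small number of arrays. Gene symbols came from the RefSeq table of assembly R64, in which 5801 of 6301 systematic names and all 42 genes of the set matched, and no coordinates are given.

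Dye-swapped arrays of a replicate number were averaged (n = 2), and the mean log2 ratio of each of the 3765 fully measured ORFs was set against 0 with limma 3.58.1 (lmFit, eBayes; R 4.3.3). P-values are two-sided and were adjusted over these ORFs by the Benjamini-Hochberg method. The dye term was fitted on the 4 arrays. Tables and figures were made with Python 3.11.15, pandas 2.3.3, scipy 1.17.1 and matplotlib 3.10.9, and the fit was tested on simulated data. All genes of the set are accounted for; given array by array are the 5 highest and 5 lowest means among tested genes, every called gene, RSM24 and any gene with a called dye term, and, per further list, the most changed called gene in either direction. The genes, lists and alternatives were chosen with earlier results of these data known. The study's Bayesian program (BAGEL) was not used here. The alternatives were 4 arrays as independent values, the replicate number as a block, no moderation, centring and scaling of the arrays, looser demands on missing values, leaving out the rows of disagreement, a robust fit and leaving out each array in turn; each replicate and each orientation alone was added after the data were seen.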

Additional observations from a re-analysis of the deposited data

Results flagged for a closer look

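MRP7 and RSM25 had opposite signs in the dye orientations. The log2 ratio of MM over SC on the MM-Cy5 array minus that on the SC-Cy5 array was -0.31 for MRP7 and -0.19 for RSM25. Each gene has 1 array per orientation, both of replicate 1, so the difference was not tested. Among the 31 genes with all values, the orientation means differed in sign in 6 (MRPL17, MRPL33, MRPS35, RSM19, RSM23 and RSM24), all with means near 0, and MRPL33 was the single gene in which each MM-Cy5 array lay below 0 and each SC-Cy5 array above (means -0.09 and 0.21). No dye term of these 6 genes was called (unadjusted limma p 0.143 to 0.515).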

How the results depend on the processing

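The median of the tested genes was positive under all alternatives, at 0.17 to 0.25 in those that kept both replicates and orientations, 0.21 in each dye orientation alone, 0.26 in replicate 1 alone and 0.12 in replicate 2 alone. The number of called genes, 8 (6 higher and 2 lower in MM), also changed; the share of all ORFs called in the same setting is given in parentheses after each count, beside 33.5% as reported. With the 4 arrays as independent values it was 13, with 9 higher and 4 lower (46.3%), and with values on at least 3 arrays 13 of 34, with 4 lower (43.5%). With arrays centred on their median it was 6, with 4 higher (33.0%), and MRPL25 and RSM18 were not called. With arrays centred and scaled it was 5, with 3 higher (30.3%), and with a value in both replicates 5 of 34, with 3 higher (26.5%). With scaling and with a value in both replicates, MRPL25, RSM18 and RSM27 were not called. Without the rows of disagreement it was 19, with 14 higher and 5 lower (64.1%). Without moderation of the variance 0 were called (0 higher and 0 lower; 5 had an unadjusted p of at most 0.05), and no ORF of the table was called. With each array left out in turn it was 3 to 6, with 1 to 4 higher and 2 lower in each case; it was 3 without MM-Cy5 array 1 (25.1%), 3 without MM-Cy5 array 2 (15.1%), 6 without SC-Cy5 array 1 (27.3%) and 5 without SC-Cy5 array 2 (26.2%). The cause of these changes was not tested.

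With the replicate number as a random block it was 17, with 12 higher and 5 lower (52.6%), at a consensus correlation of -0.24. The deviations of arrays with the same number correlated at 0.71 over all tested ORFs and 0.04 outside the rows of disagreement. Both numbers give the same value by construction, with 2 arrays per orientation. Over the whole table, arrays of the same number thus went together. Outside the rows of disagreement, where the set lies, the numbers are not shown to pair the arrays. The dye term was called in 0 genes of the set in all alternatives tried, with the replicate block as well.

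Genes near 0 changed sign when an array was left out: MRPL17 (-0.10 to 0.043), MRPL33 (-0.057 to 0.18), MRPS35 (-0.017 to 0.28), RSM19 (-0.10 to 0.0024), RSM23 (-0.15 to 0.080) and RSM24 (-0.065 to 0.057). None of them was called.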
